A study of Mus musculus with 19 samples.

Results

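The Iroquois homeobox family comprises 6 mouse genes, Irx1 to Irx6, and its members were taken here as every probe whose transcript accession maps to 1 of these symbols. The arrays hold 7 such probes, 1 for each gene except Irx2, which has 2, among 20660 genes with a probe. Expression was measured in fibroblasts grown from 7 organs of adult mice aged 8 to 10 weeks: skin (2 samples) and tail (3 samples), called surface sites below, and gonad (3), heart (3), kidney (2), liver (3) and lung (3), called internal organs. The same description is given for every sample: chopped tissue was digested with trypsin or collagenase. The plated cells were then kept for 5 days in serum-containing medium, with no sort for cell type. Which of the enzymes each sample had is not stated, so a difference in enzyme between organs cannot be told apart from organ. No genotype or treatment sets any group apart. The labels give no strain, no sex, no site of the skin taken and do not say whether the replicates are different animals. The p-values therefore speak of the spread among these samples alone, which may be technical. Lung replicate 2 had no scanner file here, which left 18 arrays: 5 of surface sites and 13 of internal organs.

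Iroquois proteins are transcription factors with a homeodomain of the TALE class, the group that also holds the Meis, Pbx and Tgif proteins. They are known from patterning work: dividing the neural tube and the limb into territories, setting up segments of the nephron, and keeping chambers and layers of the heart distinct. The genes lie in a pair of clusters thought to have arisen by duplication, so that Irx1, Irx2 and Irx4 of the first cluster are the counterparts of Irx3, Irx5 and Irx6 of the second. In the RefSeq gene table the first cluster lies on chromosome 13 and the second on chromosome 8, with 0 protein-coding genes between the members of either.

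RefSeq promoter windows were at hand for 3 members, Irx2, Irx3 and Irx4, and are shown because the results turn on these genes: Irx3 separated surface from internal arrays, Irx2 did so by 1 of its probes, and Irx4 did not. Each window runs from 250 bases before to 50 bases after the gene's start, in GRCm38.p6, written 5′ to 3′ along the gene with every CG dinucleotide in capitals.
Irx2, chr13:72628570-72628869, plus strand: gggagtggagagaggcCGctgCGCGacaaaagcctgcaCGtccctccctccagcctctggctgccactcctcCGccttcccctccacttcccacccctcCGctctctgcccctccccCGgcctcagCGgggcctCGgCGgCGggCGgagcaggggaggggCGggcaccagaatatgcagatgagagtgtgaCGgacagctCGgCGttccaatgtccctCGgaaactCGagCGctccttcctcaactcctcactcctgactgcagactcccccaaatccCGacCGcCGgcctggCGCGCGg
Irx3, chr8:91801605-91801904, minus strand: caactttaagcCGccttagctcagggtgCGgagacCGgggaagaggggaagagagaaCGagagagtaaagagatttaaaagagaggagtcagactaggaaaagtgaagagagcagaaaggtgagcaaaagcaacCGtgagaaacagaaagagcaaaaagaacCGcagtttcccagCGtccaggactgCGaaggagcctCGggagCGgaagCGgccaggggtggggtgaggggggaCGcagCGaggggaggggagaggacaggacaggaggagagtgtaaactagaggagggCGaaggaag
Irx4, chr13:73260247-73260546, plus strand: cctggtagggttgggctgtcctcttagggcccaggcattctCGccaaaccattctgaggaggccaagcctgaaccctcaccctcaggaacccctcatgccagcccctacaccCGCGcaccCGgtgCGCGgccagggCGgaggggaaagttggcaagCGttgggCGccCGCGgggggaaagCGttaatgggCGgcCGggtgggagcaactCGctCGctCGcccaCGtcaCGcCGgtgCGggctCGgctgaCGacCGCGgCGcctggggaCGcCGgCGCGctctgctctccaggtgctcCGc
The Irx2 window held 25 CG dinucleotides, a number reached by 18.4% of the 32851 RefSeq windows of this length. The Irx3 window held 14, reached by 36.3% of windows. The Irx4 window held 31, reached by 10.6%, and the median over all windows was 7. Searched on both strands, the motif ACANNTGT, which Iroquois proteins are known to bind, was in none of the 3 windows and in 7.38% of all windows. The TALE motif TGACAG, likewise on both strands, was in none of the 3 and in 19.2% of all. The motifs share the letters ACA, and their absence says only that these letters are not in these windows.

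Before the family is described, 5 arrays must be set apart: gonad 3, heart 1, tail 2 and both kidney arrays. On these the dark control spots averaged 44.6 to 180 scanner units, against 31.8 to 35.6 on the 13 others, and the arrays' median raw signals lay between 213 and 1985, against 63.0 to 130.5 on the others. The scanner software called 84.9% to 96.6% of probes well above background on them, against 51.2% to 77.2% on the others. Both kidney arrays are among the 5, so kidney and raised background cannot be told apart, and the results on all 18 arrays are set beside those on the 13 without them where a call or a count differs. Among those 13, the 4 surface arrays were also brighter, with median raw signals of 98.0 to 130.5 against 63.0 to 87.0 on the 9 internal arrays. The part of array brightness in the results was not tested. The fibroblast markers matched the label: all 10, among them Col1a1, Col1a2, Pdgfra and Thy1, were well above background on the surface arrays, and 0 of 10 were called between surface and internal arrays by the test described below.

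In the main comparison, the fibroblasts of skin and tail had higher Irx1, Irx3 and Irx5 signal than those of the internal organs. The difference was 129-fold for Irx1, 14.5-fold for Irx3 and 10.5-fold for Irx5, as fitted with limma over all genes. A gene was called where the Benjamini-Hochberg adjusted p was under 0.05 and the log2 difference at least 1. On the 18 arrays 3 of the 6 Iroquois genes were called higher and 0 lower, where 2.87% of the 20201 tested genes were called higher and 1.77% lower. All 6 were called higher on the 13 arrays, but so were 25.1% of 18109 tested genes, with 3.85% lower. The median difference over all tested genes was 0.43 log2 units on 18 arrays and 0.16 on 13. The members' differences are given without subtracting it, and dim genes of other cell types differed by more than this median on the 13 arrays (below). In these bulk cultures, fewer cells of a type and less RNA per cell cannot be told apart.

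**Figure D1:**
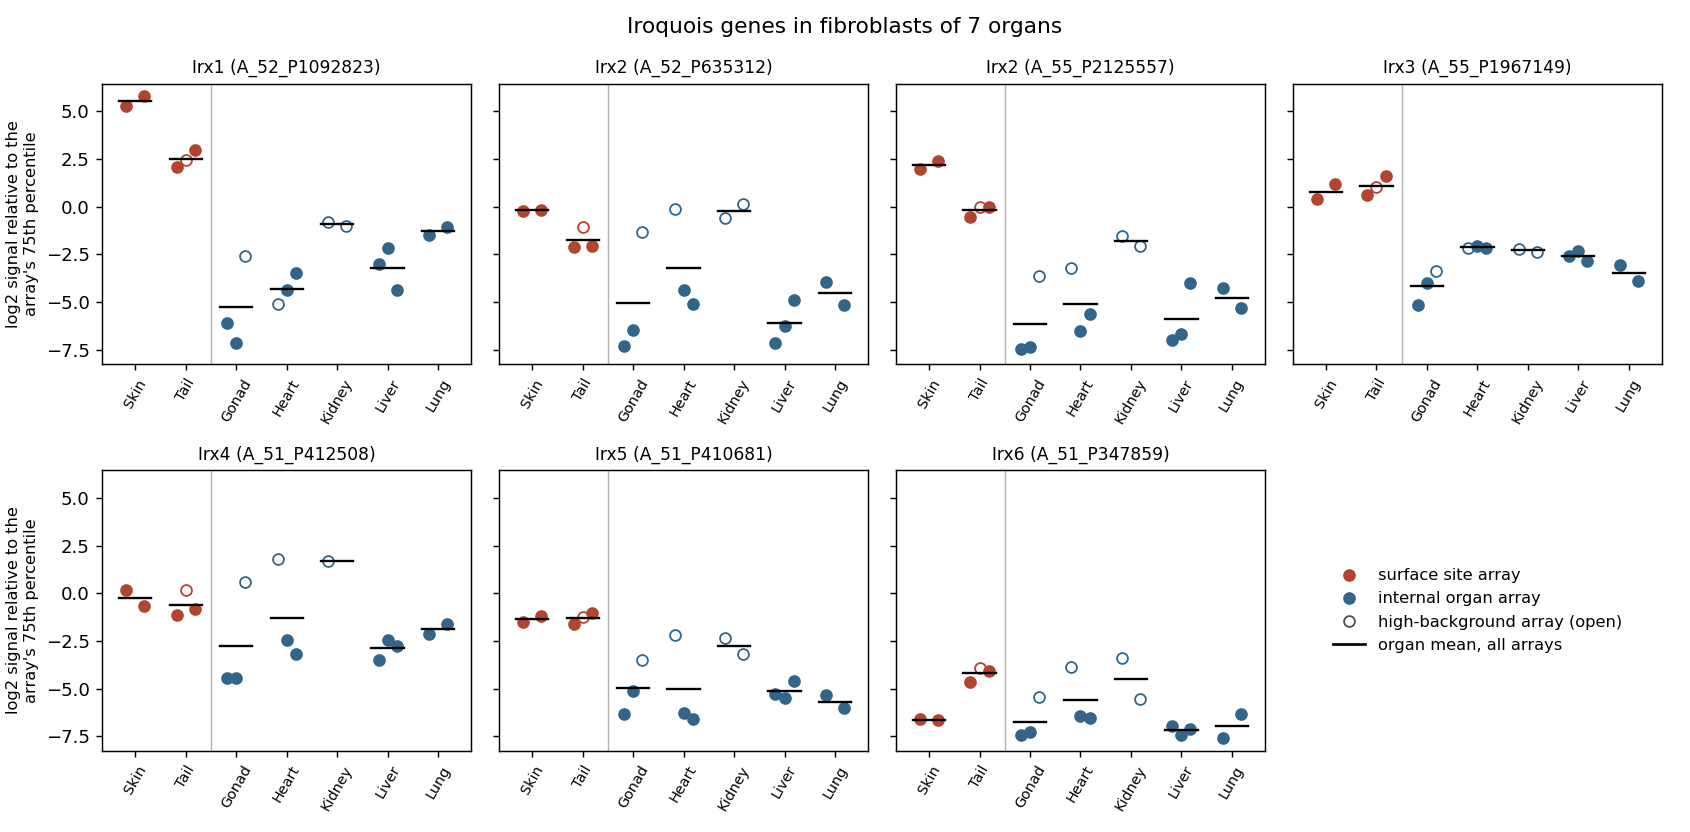
Signal of each Iroquois probe on each array, as log2 relative to that array's 75th percentile, by organ, with surface sites left of the grey line and internal organs right of it. Points are arrays, open points are the 5 high-background arrays and bars are organ means. Irx1, Irx3, Irx5 and the second Irx2 probe have every surface array above every internal array, while Irx4 is highest on open internal points. The Irx4 spot of kidney 2 was flagged as an outlier and has no point.

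Irx1, known from limb, lung and nephron patterning, had the widest range of the family. Its processed signal was 21272 and 25718 on the skin arrays and 2619, 3759 and 4305 on the tail arrays, against 225 and 256 in lung, 2423 and 1133 in kidney, and 26.2, 77.7 and 139 in liver. Heart arrays had 66.9, 23.5 and 43.1 and gonad arrays 8.28, 3.65 and 98.1. Skin stood above tail, tail above all internal organs, and gonad arrays 1 and 2 and heart arrays 1 and 2 were not well above background.

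Relative to the array's 75th percentile, Irx1 averaged 3.71 ± 1.70 log2 units on surface arrays (SD, n = 5) and -3.29 ± 2.04 on internal arrays (SD, n = 13). The fitted difference was 7.01 ± 0.60 (SE; limma adjusted p = 2.5e-05), and on the 13 arrays 7.78 ± 0.41 (adjusted p = 9.0e-06). Within the 3 slides it was 6.88, 8.54 and 5.22, with every surface array above every internal array on each. The nearest organ below tail was kidney, whose arrays are both high-background, and that step of 3.40 log2 units was itself called (limma adjusted p = 0.018). Tail minus lung was larger, at 3.78 with the same SE of 1.03, but was not called (limma adjusted p = 0.076).

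Irx2, which with Irx1 marks digit and lung territories in the embryo, was read by 2 probes that disagreed in size. Probe A_55_P2125557 gave 2151 and 2474 in skin and 427, 700.2 and 542 in tail, against 1442 and 551 in kidney. Its other internal signals were 253, 5.32 and 9.82 in heart, 3.12, 3.17 and 46.9 in gonad, 4.88, 6.16 and 34.0 in liver, and 33.9 and 13.2 in lung. After scaling, every surface array lay above every internal array with this probe.

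Probe A_52_P635312 gave 475 and 414 in skin and 142, 330.0 and 132 in tail, but 2824 and 2470.5 in kidney and 2124 on heart array 1. Surface and internal arrays overlapped with it, and the high internal values were on the high-background arrays. Where those were left out, the surface arrays had 132 to 475, against 42.1 at most on the internal arrays.

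The surface minus internal difference of Irx2 was 5.76 ± 0.70 log2 units with A_55_P2125557 (SE; limma adjusted p = 2.5e-04). With A_52_P635312, the brighter probe on average and therefore the one used in the 18-array fit, it was 2.85 ± 0.93 (adjusted p = 0.11). Without the high-background arrays both probes passed, at 7.0 ± 0.53 (adjusted p = 4.0e-05) and 4.42 ± 0.41 (adjusted p = 9.0e-05), in the same order of probes. These 2 values rest on dim internal spots: 2 of the 9 internal arrays of that set were well above background with the first probe and 3 of 9 with the second. Taken as bounds on those arrays, surface cells had Irx2 by A_55_P2125557 at least 93.9-fold above gonad and at least 45.7-fold above heart, and by A_52_P635312 at least 21.9-fold above gonad. Irx2 by A_52_P635312 was also called when gonad 3 (3.22, adjusted p = 0.014) or heart 1 (3.16, adjusted p = 0.017) alone was left out.

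Irx4, best known as a ventricular muscle factor, closes the first cluster and behaved differently. Its processed signal was 630.4 and 294 in skin and 278, 798 and 319.9 in tail, against 13784 on kidney 1, 7996 on heart 1 and 893 on gonad 3. The remaining heart arrays had 87.6 and 52.5, the remaining gonad arrays 26.3 and 23.9, liver 56.9, 117 and 81.4, and lung 145 and 173. The kidney 2 spot read 8200.4 but carried an outlier flag and was set missing in the fit. The order of the arrays therefore put 3 high-background internal arrays above all surface arrays and the other 9 internal arrays below them.

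The Irx4 difference was 1.02 ± 0.93 log2 units over 18 arrays (SE; limma adjusted p = 0.53), with the single kidney value in place of 2. On the 13 arrays it was 2.41 ± 0.25 (adjusted p = 1.5e-04). Within slides it was 2.65, 1.52 and 0.04, the first of these without the flagged kidney 2 spot, which lies on slide 1. With normexp background correction and quantile normalization of all 18 arrays it turned to -0.14 (adjusted p = 0.94), so no direction is given for Irx4 on 18 arrays. The high-background array of an organ exceeded that organ's other arrays by 5.03 log2 units in gonad, 4.61 in heart and 1.16 in tail for Irx4, while the median over all genes was 0.18, -0.19 and 0.10. The 90th percentile over all genes was 4.82, 4.71 and 1.73 in the same order of organs, so the Irx4 shift was near it in gonad and heart. Irx2 by A_52_P635312 shifted by 5.53 in gonad and 4.6 in heart, and Irx5 by 4.25 in heart. Members with every surface array above every internal array shifted too: Irx1 by 4.03 in gonad and -1.20 in heart, and Irx2 by A_55_P2125557 by 3.77 and 2.86.

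**Figure D2:**
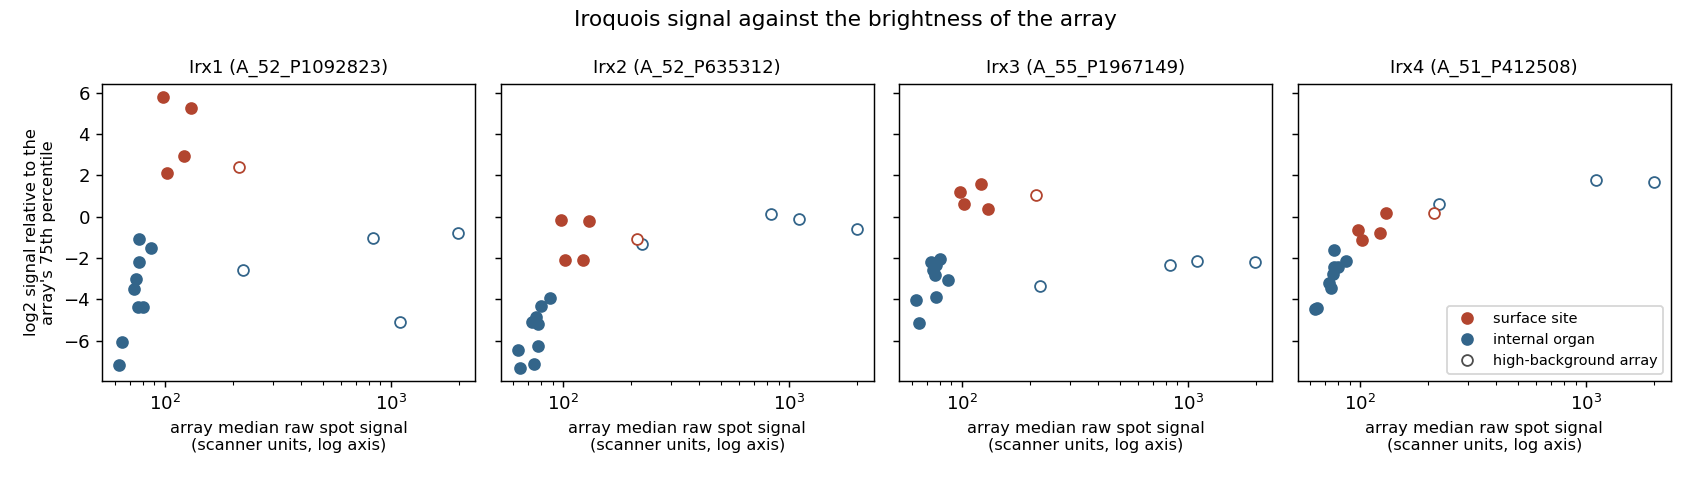
Signal of 4 Iroquois probes, as log2 relative to the array's 75th percentile, against the median raw signal of the array in scanner units on a log axis. Each point is an array, coloured by surface site or internal organ, and open points are the high-background arrays. Irx4 climbs with the brightness of the array across both classes, whereas Irx1 and Irx3 have all surface points above all internal points.

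Irx3, the second cluster's counterpart of Irx1 and a factor of neural tube, nephron and adipose biology, separated surface from internal arrays on every slide. Its processed signal was 715 and 1052 in skin and 943, 1423 and 1677 in tail. Against these stood 15.9, 32.3 and 57.1 in gonad, 526, 116 and 107 in heart and 925 and 443 in kidney. Liver arrays had 105, 125 and 76.7 and lung arrays 76.3 and 35.4. All 18 arrays were well above background, so no value was a bound, and after scaling the lowest surface array (0.38 log2 units) lay above the highest internal one (-2.05).

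The Irx3 difference was 3.86 ± 0.29 log2 units (SE; limma adjusted p = 7.4e-06) and 4.14 ± 0.29 on the 13 arrays (adjusted p = 3.0e-05). It was 3.55, 4.33 and 4.12 within the 3 slides. Heart and kidney arrays lay within -2.36 to -2.05 log2 units for this gene. The high-background array of an organ differed from that organ's other arrays by -0.03 in heart, -0.08 in tail and 1.21 log2 units in gonad.

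Irx5, the counterpart of Irx2 and known for setting the repolarization gradient of the heart wall, had nearly equal signal on the 5 surface arrays. These gave 193 and 206 in skin and 204, 293 and 271 in tail. Internal arrays gave 7.07, 15.1 and 52.1 in gonad, 510.2, 6.11 and 5.05 in heart, 843 and 251 in kidney, 16.2, 14.3 and 22.7 in liver, and 15.8 and 8.38 in lung. The raw signals of heart 1 and kidney 1 exceeded the surface values, but after scaling to the array all surface arrays (from -1.59 log2 units) stood above all internal arrays (up to -2.19).

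The Irx5 difference was 3.39 ± 0.63 log2 units (SE; limma adjusted p = 0.0052), and 4.41 ± 0.27 on the 13 arrays (adjusted p = 1.5e-05). On that set 4 of 9 internal arrays were well above background for Irx5 and neither heart array was, so that surface cells were at least 9.41-fold above heart. Within slides the difference was 3.74, 3.26 and 3.44. Without skin array 2 its adjusted p was 0.05 and the call on 18 arrays was lost, at 3.31 log2 units.

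Irx6, the counterpart of Irx4 and a factor of retinal bipolar cells, was close to background nearly everywhere. It was well above background on all 3 tail arrays, with 24.9, 47.3 and 33.1, and otherwise only on heart 1 (161) and kidney 1 (400.4), both high-background arrays. The skin arrays gave 5.74 and 4.63, which is not well above background, as in gonad, liver and lung, where the signals ran between 3.27 and 13.5. So within the surface sites the tail arrays carried the signal and the skin arrays were not well above background.

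Irx6 signal in tail was at least 1.51-fold that in skin, 2.17-fold that in gonad, 2.60-fold that in liver and 1.80-fold that in lung. Each bound sets the tail mean against the lowest signal that the scanner software called well above background on the dim arrays, or the probe's own where that was higher. The fitted tail differences had limma adjusted p of 0.18 against skin, 0.078 against gonad, 0.037 against liver and 0.13 against lung. Surface against internal, Irx6 differed by 0.78 ± 0.50 log2 units (SE; adjusted p = 0.38). The fit on 13 arrays gave 1.51 ± 0.22 (adjusted p = 7.2e-04), but all 9 internal arrays and both skin arrays were below the background call there. The bound for surface over internal was under 1, and for tail over internal it was at least 1.85-fold. With normexp correction on the 13 arrays Irx6 was not called, at 0.13 log2 units.

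**Figure D3:**
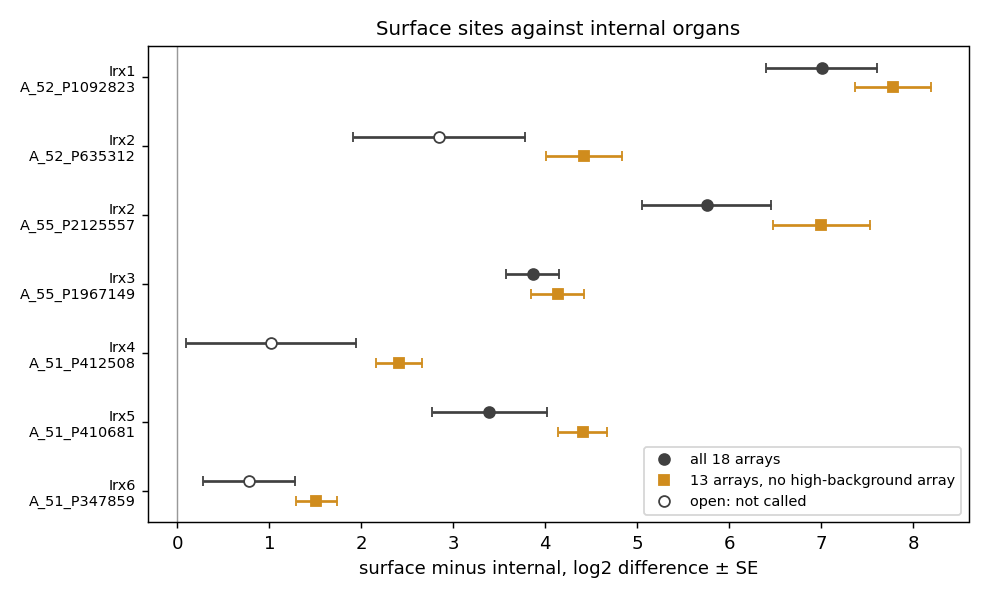
Surface minus internal difference of each Iroquois probe in log2 units, with its standard error, over all 18 arrays (circles) and over the 13 arrays that were not high-background (squares). Filled symbols were called. Irx1, Irx3, Irx5 and Irx2 by A_55_P2125557 were called in both sets, and Irx4, Irx6 and Irx2 by A_52_P635312 only in the set of 13.

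Across all genes, 0.787% had every surface array above every internal array on the 18 arrays. Irx1, Irx3 and Irx5 did, as did Irx2 by A_55_P2125557, whereas Irx4, Irx6 and Irx2 by A_52_P635312 did not. Of single organ pairs with skin or tail on top, Irx3 was called higher in all 10 and Irx1 in 9, the exception being tail against lung (3.78 log2 units, limma adjusted p = 0.076). That difference was larger than the called difference of tail against kidney (3.40), with the same SE. The adjustment runs over all genes within each contrast, so calls of different pairs do not rank their differences. Irx5 was called higher in tail against 4 of 5 internal organs and in skin against 0. Over all genes 8.71% of such pairs were called, and 19.4% of the 8 pairs left on the 13 arrays. There Irx1, Irx2, Irx3 and Irx5 were called in all 8, Irx4 in 7 and Irx6 in the 4 with tail.

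The moderated F test over the 7 organs called 5 of the 6 genes, all but Irx4, where 36.9% of genes were called. It called all 6 on the 13 arrays, where 53.9% were. The calls of Irx2 and Irx6 stood at an adjusted p of 0.038 each, and 12 of the 18 fits that leave out a single array called only 3 members. These were the fits without gonad 2, without kidney 1, or without any 1 of the liver, lung, skin and tail arrays.

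Between the surface sites, skin minus tail, 0 of 6 members were called on the 18 arrays, where 3.53% of genes were. The difference was 3.04 ± 1.03 log2 units for Irx1 (SE; limma adjusted p = 0.16) and -2.42 ± 0.85 for Irx6 (adjusted p = 0.18). On the 13 arrays 2 members were called, where 13.3% of genes were: Irx1 at 3.01 ± 0.69 (adjusted p = 0.014) and Irx6 at -2.27 ± 0.37 (adjusted p = 0.003), with both skin arrays below the background call for Irx6. With slide as a block on 18 arrays, Irx1 was called at 3.59 ± 0.79 (adjusted p = 0.038). Irx3 and Irx5 had closely placed surface means on the 13 arrays, with differences of -0.33 ± 0.48 and -0.03 ± 0.44. Irx2 by A_55_P2125557 differed by 2.47 ± 0.87 there (adjusted p = 0.077).

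Set against the mean of the other 6 organs, skin had Irx1 7.61 ± 0.84 and Irx3 3.04 ± 0.40 log2 units higher (limma adjusted p = 7.4e-04 and 0.0022), 2 of 6 members where 0.901% of genes were called higher. Tail had 4 members higher, Irx1 at 4.07, Irx3 at 3.39, Irx5 at 2.86 and Irx6 at 2.06, where 4.6% of genes were. The Irx6 call was at the threshold (adjusted p = 0.05) and was lost with slide as a block (adjusted p = 0.059). Irx2 by A_55_P2125557 was also called higher on 18 arrays, by 6.18 ± 0.98 in skin and 3.41 ± 0.83 in tail (adjusted p = 0.0063 and 0.022). Set against the other 5 organs on the 13 arrays, skin had 5 of 6 members higher, all but Irx6, where 21.3% of genes were called higher. Tail had all 6 higher there, from 1.48 for Irx4 to 4.42 for Irx1, where 18% of genes were.

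Gonad had the lowest mean of the 7 organs for Irx1 and Irx3. Irx1 was -5.0 ± 0.71 and Irx3 -2.74 ± 0.34 log2 units from the other organs (limma adjusted p = 0.0013 and 4.7e-04), where 0.881% of genes were called lower. Irx2 by A_55_P2125557 was also lower there (-3.57 ± 0.83, adjusted p = 0.031). On the 13 arrays all 6 members were called lower in gonad, where 19.1% of genes were, with Irx1, Irx2 and Irx6 not well above background on either gonad array. Heart had Irx1 lower by the fit (-3.88 ± 0.71, adjusted p = 0.0055), 1 of 6 where 2.46% of genes were, and lung had Irx3 lower (-1.94 ± 0.40, adjusted p = 0.049), 1 of 6 where 0.173% were. The lung call was lost with slide as a block (-1.80, adjusted p = 0.098). The mean of the other organs includes skin and tail. Against single internal organs on the 18 arrays, lung was not called for Irx3, and heart was called for Irx1 only against kidney. Gonad was called lower there for Irx1 only against kidney, and for Irx3 only against heart and kidney. On the 13 arrays gonad was called lower than heart and liver for Irx1, Irx3 and Irx4, and lower than lung for Irx1 and Irx4. For Irx2, Irx5 and Irx6 it was called against no internal organ, and its Irx5 mean (-5.71) lay above that of heart (-6.43). Kidney had Irx2 by A_52_P635312 and Irx6 higher, 2 of 6, but 35.7% of genes were called higher in kidney. No member was called in liver in either direction on the 18 arrays, where 238 of 20201 genes were called higher and 117 (0.579%) lower. With slide as a block Irx1 was called lower in liver (-2.69 ± 0.54, limma adjusted p = 0.035).

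With the high-background arrays left out, liver had Irx1 lower at -2.44 ± 0.45 and Irx2 at -2.63 ± 0.57 log2 units (limma adjusted p = 0.013 and 0.025), 2 of 6 where 3.73% of genes were. The liver means of these genes (-3.19 and -5.90) lay above those of heart (-3.92 and -6.06) and gonad (-6.62 and -7.43). Irx2 by A_55_P2125557 was well above background on 1 of the 3 liver arrays. Heart had Irx1, Irx2 and Irx5 lower, at -3.31, -2.81 and -2.61, where 6.06% of genes were, and Irx2 and Irx5 were not well above background on either heart array of this set. Lung had Irx3 and Irx5 lower, at -2.01 and -1.69 (adjusted p = 0.022 and 0.033), where 0.9% of genes were. Irx5 was well above background on 1 of the 2 lung arrays. These comparison means include skin and tail. Against single internal organs of this set, lung was called for neither Irx3 nor Irx5. Heart was called lower than another internal organ only for Irx1 against lung (lung minus heart 2.63, limma adjusted p = 0.047).

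Over the 13 arrays Irx1 and Irx2 (A_55_P2125557) correlated at r = 0.94, Irx1 and Irx3 at 0.87, Irx3 and Irx5 at 0.89, and Irx2 (A_55_P2125557) and Irx5 at 0.93. Irx6 had lower correlations with the other members, 0.52 to 0.71 on these arrays. The points share the arrays' brightness and the surface split, and no test was made. Irx1 and Irx4 correlated at 0.50 over all arrays (n = 17), against 0.94 on the 13, and the 2 Irx2 probes at 0.86 over 18 arrays, against 0.97 on the 13. The genes whose pattern was most like each member were taken over the 18 arrays. For Irx1 they were Lrrc15, a membrane protein of activated fibroblasts (r = 0.92), Gjb2, a gap junction protein (0.92), and Gdap1l1 (0.92). For Irx3 they were Lrrc8e, a subunit of a volume-regulated anion channel (r = 0.95), Cilp, a cartilage matrix protein (0.91), and Tbx15, a T-box factor of skin mesenchyme (0.90). Irx2 by A_55_P2125557 was most like Tbx15 (r = 0.94), Hhip, a hedgehog antagonist (0.93), and Lrrc15 (0.92).

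The other probes had other neighbours. Irx2 by A_52_P635312 was most like Krt5, a basal keratin (r = 0.98), Kcng1 (0.96) and Myh3 (0.96), none of them called surface against internal. Irx4 was most like Rnf151 (r = 0.99), Tnk2os (0.99) and Pldi (0.99) over 17 arrays, and these 3 genes differed by 1.00, 1.13 and 1.19 log2 units, none of them called. Irx5 was most like Sult2b1 (r = 0.92), Cbln1 (0.91) and Il12rb1 (0.91), and Irx6 most like Ctag2l2, Klra9 and Zfhx2os (0.94 each).

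Among the TALE relatives of the family, 1 of 12 was called higher in surface cells on the 18 arrays and 0 lower. This was Mkx, a tendon factor (1.52 ± 0.39, limma adjusted p = 0.04), and the list's median of 0.49 log2 units was near the 0.43 of all genes. On the set of 13, Mkx and Pbx4 were called higher, and Meis1 (-1.74) and Meis2 (-1.11), both Hox cofactors, lower. Of 18 described partners and targets of Iroquois factors, Gja1, the connexin 43 gene, and Vdr, the vitamin D receptor, were higher (1.41 ± 0.36 and 1.33 ± 0.34). On the 13 arrays Vdr was called at 1.83, and Gja1, at 0.87, was under the threshold of 1. Gata4, a cardiac and mesodermal factor, was lower by the fit at -7.24 ± 0.39 (adjusted p = 5.7e-07) and was not well above background on any surface array. The cardiac Iroquois targets Kcnd2, Smyd1, Bmp10, Gja5 and Myh7 were not called on the 18 arrays. With the high-background arrays left out, Kcnd2 (2.11), Bmp10 (2.42) and Gja5 (2.56) were called higher (limma adjusted p = 0.025, 0.0018 and 0.0032), and Smyd1 and Myh7 were not. Of the 13 internal arrays of the full set, Kcnd2, Bmp10 and Gja5 were well above background on 5, 7 and 8. In all, 4 of 17 of these partners and targets were higher and 3 lower on the 13 arrays, beside the 25.1% and 3.85% of all genes. The 3 lower were Gata4 (-8.68), Bmp4 (-2.31, limma adjusted p = 0.0014) and Nkx2-5 (-1.10, adjusted p = 0.021).

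The 5 nearest protein-coding genes on each side of each cluster were read for the same contrast. Around Irx1, Irx2 and Irx4, 0 of the 9 tested neighbours were called on 18 arrays, and on 13 arrays Adamts16 (3.32 ± 0.28) and Ube2ql1 (1.55 ± 0.46) were called higher, no greater a share than the 25.1% of all genes. Around Irx3, Irx5 and Irx6, 2 of 10 were called higher on 18 arrays, where 2.87% of all genes were. These were Mmp2, a gelatinase (1.47 ± 0.34, limma adjusted p = 0.021), and Slc6a2, the noradrenaline transporter (1.55 ± 0.26, adjusted p = 0.0025). Slc6a2 was not well above background on any internal array. On the 13 arrays Slc6a2 (1.58) and Ces1a (1.92, adjusted p = 0.0096) were called, again 2 of 10 beside 25.1% of all genes, and Mmp2, at 0.59, was under the threshold of 1. Fto, whose introns hold enhancers of Irx3, differed by 0.28 ± 0.17 (adjusted p = 0.36).

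Markers of other cells moved with the same contrast, and their part in the Iroquois results was not tested. Of all genes, 2.87% were called higher and 1.77% lower in surface cells on the 18 arrays, and 25.1% and 3.85% on the 13. Of 12 keratinocyte genes, Krt14 (2.61 ± 0.55) and Dsp (3.07 ± 0.70) were called higher in surface cells, and the list's mean level was -2.63 to -0.74 log2 units on surface arrays against -4.03 to -0.05 on internal arrays. Without the high-background arrays 7 of 11 were called higher, where 25.1% of all genes were, and Krt1 was not well above background on any surface array. Krt14 (5.92 log2 units, limma adjusted p = 0.0038) and Perp (3.34, adjusted p = 0.016) were called higher in skin than in tail. Perp was not called surface against internal (-1.18, limma adjusted p = 0.13). The other keratinocyte genes were not called between skin and tail, and Krt15 (-0.51), Krt10 (-0.38) and Trp63 (-0.23) had the higher mean in tail. Mesothelial genes ran the other way, 5 of 6 lower in surface cells on the 18 arrays. The remaining mesothelial gene, Krt19, was not called there (1.55) and was called higher on the 13 arrays (2.3, limma adjusted p = 0.025). Of 8 endothelial genes, Cdh5, Emcn and Tie1 were called lower on the 18 arrays, while Kdr (0.47) and Tek (0.57) had positive differences that were not called. On the 13 arrays 3 of 3 lung epithelial genes in the fit (Sftpc, Sftpb and Scgb1a1, by 1.71 to 2.70 log2 units) and 4 of 6 kidney tubule genes were called higher in surface cells too, beside the same 25.1%. Of 5 adipocyte genes, Cebpa was higher on the 18 arrays (3.09 ± 0.32, limma adjusted p = 6.8e-05), and 3 were on the 13. Of 8 cardiomyocyte genes, Actc1 was higher (1.96 ± 0.38) and Tnnt2 lower (-2.88 ± 0.63) on the 18 arrays, and 5 were higher and 1 lower on the 13.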

How the data were processed

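Single-colour Cy3 arrays of 1 design were read by the authors with Agilent Feature Extraction 11.0.1.1, per the file headers, which give background-subtracted, detrended spot intensity and spot flags (other columns, 0 or 1) for each array. The deposited value table holds the raw median spot intensity, equal to the scanner column on the 62976 spots of each of the 18 arrays, and adds lung replicate 2. The header names genome build mm9, so the RefSeq tables of GRCm38.p6 were used only for gene names, for the chromosome and neighbours of each cluster, and for promoter windows.

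Here log2 of the processed intensity was taken relative to each array's 75th percentile, 4493 outlier-flagged values were set missing, and spots of a probe were averaged. For each gene the brightest probe with a value in every organ and well above background on at least 2 arrays was kept, giving 20201 genes. limma 3.58.1 (R 4.3.3) fitted 7 organ means, with Benjamini-Hochberg adjustment over all genes within each contrast, and was tested on simulated data. Scaling, background correction, filters, probe choice, slide and replicate block, and omission of arrays were tried as alternatives. Replicate numbers were not treated as pairs: arrays with the same number correlated between -0.85 and 0.78 (median -0.04 over 46 pairs). The named genes were the family, its relatives, described partners and neighbours (at most 4 passing genes a list) and the 3 most alike genes of each probe. The cardiac targets, Fto and single cell type markers were named outside that rule, after their values were seen. Members and lists were chosen with earlier results of these data known. Precision is limited by 2 or 3 arrays an organ.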

Additional observations from a re-analysis of the deposited data

How the results depend on the processing

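Irx1 and Irx3 were called higher in surface cells under every alternative that tested them (32 for Irx1, 33 for Irx3), at 5.50 to 7.78 and 2.84 to 4.14 log2 units. Irx5 was called in 31 of 32, at 1.65 to 4.41, and lost only without skin replicate 2. Irx2 was called in 12 of 34 alternatives, Irx4 in 3 of 32 and Irx6 in 1 of 32. Irx4 reversed to -0.136 with normexp correction and quantile normalization. The cause of these changes was not tested.

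Of all genes, 2.87% were called higher for surface against internal on 18 arrays and 25.1% without the 5 high-background arrays. The number of members called for surface against internal was 3 on 18 arrays. It was 6 without the 5 high-background arrays with either Irx2 probe (the probe swap was chosen after seeing the data), 5 there with normexp, 5 with high background as a term, and 1 where a probe had to be well above background on each of the 18 arrays, which tests only Irx3 and Irx4. For skin against tail the number was 0, but 1 with normexp and quantile normalization, with slide as a block or from the value table of 19 samples, and 2 without the high-background arrays, with or without normexp. Organ against other organs gave 12 calls, but 24 without the high-background arrays, 19 there with normexp, and 4 with that strict probe filter. Organ pairs gave 36 calls and 15 with that strict probe filter. For organ pairs the share of all genes is given here only for those with skin or tail on top (8.71%), so the pair totals have no background beside them. The counts under the other alternatives have none either. Between internal organs on the 18 arrays, every call but Irx3 in heart above gonad involved kidney, whose arrays are both high-background. The test over 7 organs called 5 members, 1 with that strict probe filter, and 3 with replicate block; the replicate block changed no call for surface against internal. The same-number arrays share only a number.

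With single arrays left out, the counts ran from 2 to 4 for surface against internal, 0 to 1 for skin against tail, 7 to 18 for organ against others, 20 to 57 for organ pairs and 3 to 6 over the organs. The shares of all genes in these fits are not given, so these counts have no background beside them. Skin replicate 2 gave the lowest surface count and the 7. Pair counts moved most without kidney replicate 1 (20), skin replicate 2 (23), gonad replicate 3 (55) and heart replicate 1 (57), and omission of either of the last 2 gave the 1 for skin against tail. Signals below the background call limit Irx6 on most arrays outside tail, and Irx1, Irx2 and Irx5 on some internal arrays.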

Other observations

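Lung replicate 2 is present only in the deposited value table, which holds raw intensity without background subtraction, so it entered none of the comparisons of processed signal. Scaled to the array's 75th percentile, its Irx1 value was -1.03 log2 units, its Irx3 value -2.47, its Irx4 value -2.44 and its Irx5 value -3.60. The other lung arrays gave -1.31 to -0.88 for Irx1, -2.79 to -2.58 for Irx3, -1.81 to -1.36 for Irx4 and -3.51 to -3.37 for Irx5 on that scale. All 4 values of lung replicate 2 lay below every surface array, whose lowest were 1.99, 0.27, -0.96 and -1.33 for these genes.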
